A study of Zea mays with 33 samples.

Results

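The maize phytochrome genes were examined as 3 pairs of copies, namely phyA1 (Zm00001d033799) and phyA2 (Zm00001d013402), phyB1 (Zm00001d028905) and phyB2 (Zm00001d047632), and phyC1 (Zm00001d034038) and phyC2 (Zm00001d013262). They were taken by gene ID, with no measured value as a criterion, although earlier results of these data were known at the choice. They make up 6 of the 46430 features counted. All 6 passed the filter on low counts, which left 28997 genes. The reference table at hand belongs to another assembly and holds none of these IDs, so the names could not be checked against it, and no position, gene length or sequence of the copies is given here.

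All 33 libraries came from untreated wild-type plants of the inbred line B73, with 3 libraries from each of 11 tissues. Their titles all carry the letters WW, whose meaning the labels do not give. Seedlings kept on perlite out of direct light gave roots (DAS4_R) and, as DAS4_HY, hypocotyls at 4 days after sowing, and each of these libraries pooled the organs of 3 plants. The greenhouse, lit by the sun and by lamps, gave, from V2 seedlings, leaf parts that were still white and immature (V2_LF-I) and blades that were expanded and green (V2_LF). It also gave, from plants shedding pollen, the internode just beneath the ear (PS_IN1), a blade of the last leaf with a ligule (PS_LF), unpollinated ears cut at their middle (PS_EAR), silks still under the husk (PS_SILK) and, with its fresh pollen, the tassel (PS_TAS), each library from 1 plant. Whole seeds of a field in summer, pooled from 1 ear per library, were labelled 12 days (DAP12_S) and 35 days (DAP35_S) after pollination, although the methods text of the study gives another age for the younger ones. The RNA of the older seeds was extracted with an SDS buffer and a mixture of phenol, chloroform and isoamyl alcohol. Trizol and a column kit served for leaves, internodes, silks, tassels, ears and the younger seeds. For roots and hypocotyls the methods text of the study names no extraction protocol. Organ, age and growth condition therefore cannot be told apart between roots or hypocotyls, greenhouse tissues and seeds, and the labels give no hour of harvest. In these bulk libraries fewer cells of a type and less RNA per cell cannot be told apart either, and the labelled tissues were not checked against marker genes, since no marker could be tied to an ID.

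Phytochromes are the red and far-red light receptors of plants. They switch between an inactive form and an active form that moves to the nucleus and changes transcription by way of PIF transcription factors. In Arabidopsis, phyA is light-labile, builds up in darkness and drives the responses to far-red light and to very weak light. phyB is the main receptor for red light and holds back shade avoidance, and phyC is stable mainly in dimers with phyB. Grasses share these 3 kinds, and maize carries each of them as a pair of copies left by an ancient duplication of its genome.

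The libraries held between 15.8 M and 42.9 M reads assigned to genes. The TMM factor, which corrects the size of a library for its makeup, ran from 0.48 in the V2_LF libraries to 1.48 in 1 PS_EAR library. Levels are given as CPM (a gene's counts scaled to the same total of gene reads in every library, here after this correction). Without it, the median log2 fold change of all genes moved from 0 to -1.09 between V2_LF and V2_LF-I and by at least 0.34 in size in every other comparison of tissues except DAS4_HY against DAS4_R. The orders of tissues by level are those after the correction. Directions and calls that change without it are given with each comparison or in the closing section. The sizes of called values without it are given too, except in DAS4_HY against DAS4_R. The number of reads of copy 1 over that of copy 2 in the same library depends neither on this correction nor on depth, and its change between tissues does not depend on the lengths of the copies. The ratio itself does, so it does not say which copy of a pair is the more abundant. STAR counts only reads that fall on 1 gene, and reads from stretches that are identical in both copies were not counted for either.

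Every phytochrome gene had reads in every library, between 48 (phyB2 in a V2_LF library) and 11757 (phyA1 in a PS_SILK library). All 6 genes differed among the 11 tissues in edgeR's quasi-likelihood test at an adjusted p under 0.05, as did 99.5% of all genes tested. The ratio of the copies differed among tissues in all 3 pairs, with DAP35_S at the low end of phyA and phyB and PS_EAR at that of phyC, and with DAP12_S, V2_LF and DAS4_HY at the high ends. The 2 copies of a pair thus did not keep a constant ratio over the tissues. After TMM, PS_SILK still had the highest mean of both copies of phyA and of phyC. For phyC2, however, the silks overlapped with PS_EAR (means of 29.2 and 28.9 CPM). Without TMM phyC2 was called lower in silks than in the ear (-0.47, adjusted p = 0.032, edgeR). Ratios of other genes were not tested, so the changes of ratio do not set the phytochrome pairs apart from other pairs of genes. The distance between the most extreme tissues was 4.35 log2 units for phyA, 3.64 for phyB and 1.79 for phyC. The permutation test of the F statistic over the 33 libraries gave 56.7, 92.2 and 20.0, each with a p of 1e-05, the smallest that 100000 permutations can give, and 1e-05 again after adjustment for 3 tests. Between any 2 tissues with 3 libraries each, an exact permutation test cannot go below a p of 0.1, and such differences of the ratio are described by their values.

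**Figure D1:**
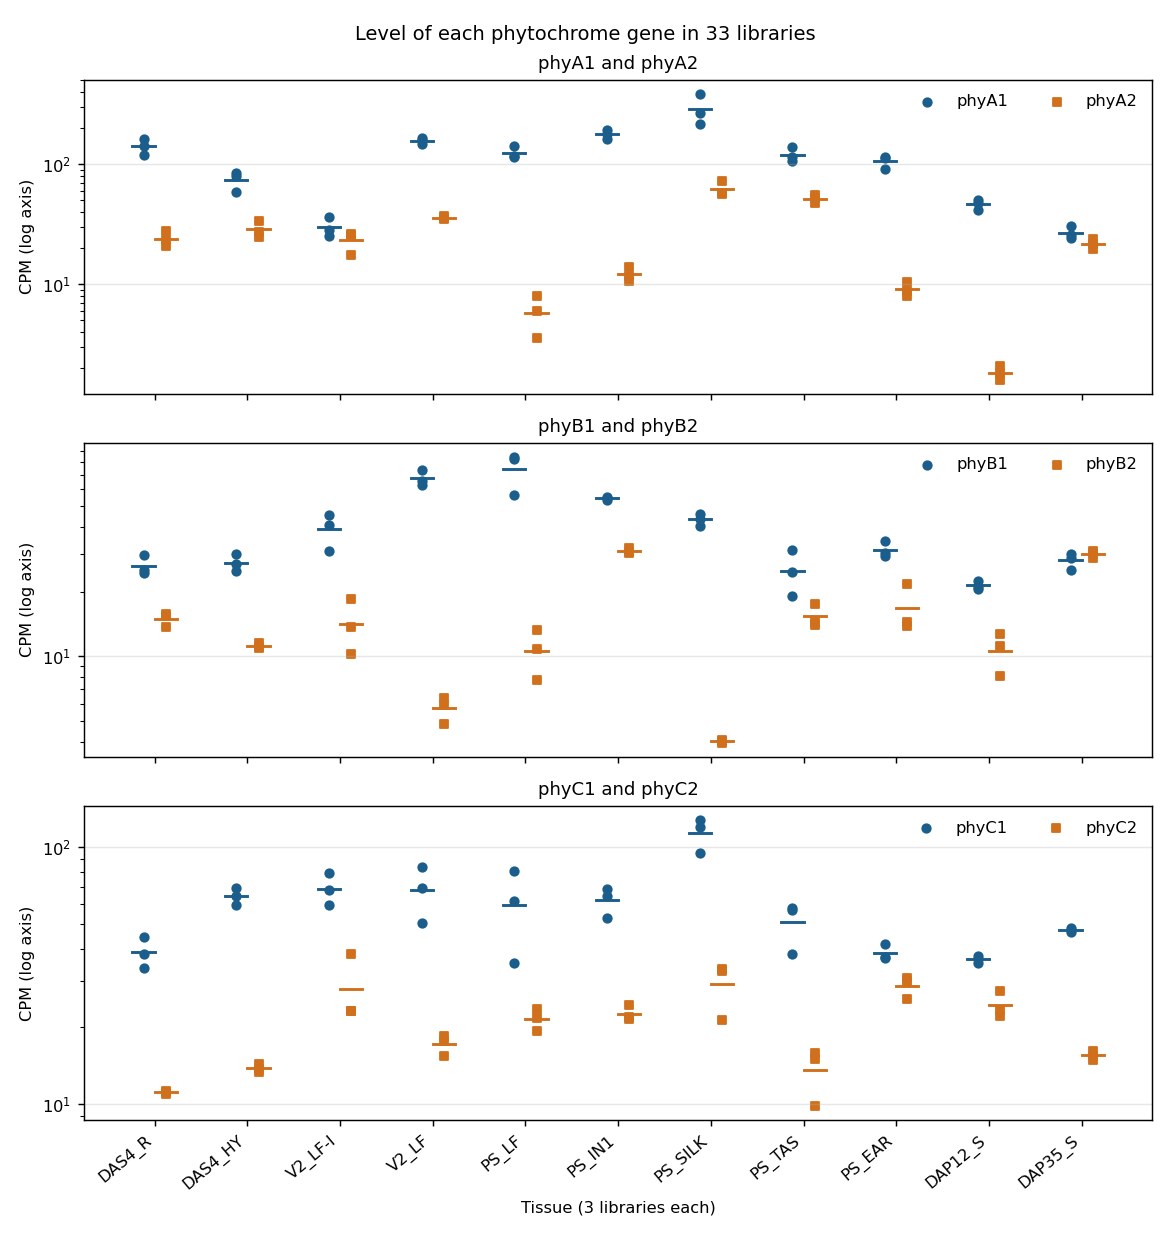
Level of each phytochrome gene, in CPM on a log axis, in the 3 libraries of each of the 11 tissues, with a bar at the mean of the 3. phyA2 covers the widest span, from a mean of 1.84 CPM in DAP12_S to 62.5 CPM in PS_SILK.

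The level of phyA1 was highest in silks. It stood at 383, 216 and 265 CPM in the 3 PS_SILK libraries, which overlap with no other tissue. The mean there was 288 ± 86.1 CPM (SD, n = 3, as for all means by tissue), against 177 ± 14.4 in PS_IN1, 157 ± 9.02 in V2_LF, 141 ± 21.6 in DAS4_R, 125 ± 15.1 in PS_LF, 120.0 ± 16.4 in PS_TAS and 106 ± 12.4 in PS_EAR. From PS_IN1 down to PS_EAR each tissue overlapped with the next. Below them came DAS4_HY at 73.6 ± 13.5 CPM, DAP12_S at 46.2 ± 4.38, V2_LF-I at 29.9 ± 5.59 and DAP35_S at 26.8 ± 3.47. The libraries of DAS4_HY and of DAP12_S were apart from their neighbours on both sides, while V2_LF-I and DAP35_S overlapped. The mean of the highest tissue was 10.8-fold that of the lowest.

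phyA2, the other copy of the far-red receptor, shared the highest tissue but not the rest of the order. Silks stood at 56.8, 72.7 and 57.9 CPM, and the mean of 62.5 ± 8.91 was followed by PS_TAS at 51.7 ± 3.63, V2_LF at 35.8 ± 0.82, DAS4_HY at 28.7 ± 4.72, DAS4_R at 23.9 ± 3.39, V2_LF-I at 23.2 ± 4.89 and DAP35_S at 21.8 ± 1.96. Lower levels were found in PS_IN1 at 12.2 ± 1.71 CPM, PS_EAR at 9.07 ± 1.25, PS_LF at 5.82 ± 2.21 and DAP12_S at 1.84 ± 0.24. Silk, tassel and V2_LF were each apart from the next tissue, DAS4_HY to DAP35_S overlapped from one to the next, and every step from DAP35_S down to DAP12_S was apart again. The young seeds stood at 2.08, 1.81 and 1.61 CPM, from 72, 65 and 52 reads, and the span from highest to lowest mean was 34.0-fold.

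The phyA ratio was widest apart in the seeds. In DAP12_S the 3 libraries held 1726, 1691 and 1334 reads of phyA1 beside 72, 65 and 52 of phyA2, a geometric mean of 25.0 to 1. In DAP35_S they held 688, 592 and 337 reads of phyA1 beside 533, 505 and 278 of phyA2, or 1.22 to 1. On the log2 scale the ratio fell by 4.35 ± 0.05 (SE) from the younger to the older seeds, the ends of all 11 tissues. Without PS_LF replicate 3 the upper end was PS_LF (a span of 4.50), and without V2_LF-I replicate 1 the lower end was V2_LF-I (4.43). PS_LF was near the upper end with a log2 ratio of 4.48 ± 0.75 and V2_LF-I near the lower with 0.37 ± 0.38, the only tissue in which a library held more reads of phyA2 than of phyA1 (456 against 441). Between them lay PS_IN1 at 3.87 ± 0.32, PS_EAR at 3.55 ± 0.23, DAS4_R at 2.56 ± 0.35, PS_SILK at 2.17 ± 0.59, V2_LF at 2.13 ± 0.12, DAS4_HY at 1.36 ± 0.15 and PS_TAS at 1.21 ± 0.16. Silk spread most of these, with phyA1 holding 87.1%, 74.8% and 82.1% of the reads of the pair in its 3 libraries. Within the 7 greenhouse tissues alone the ratio still spanned 4.11 log2 units, from PS_LF to V2_LF-I (permutation p = 1e-05, the smallest possible).

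**Figure D2:**
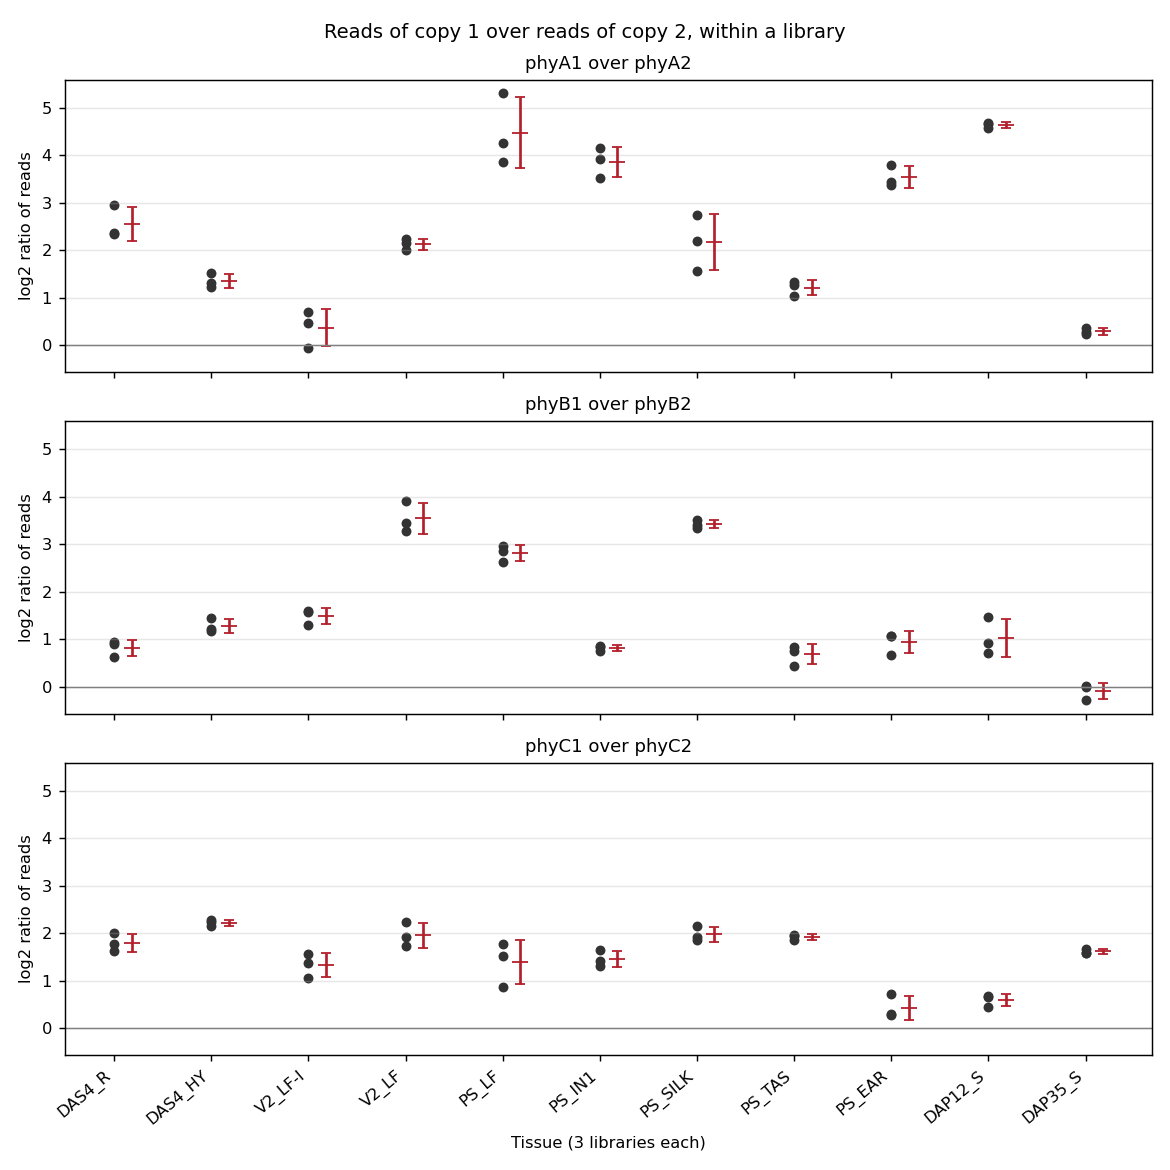
Log2 of the reads of copy 1 over those of copy 2 (0.5 added to each) in every library of the 11 tissues, with the mean ± SD of 3 libraries beside them, on the same scale for the 3 pairs. DAP35_S is lowest for phyA (0.29) and phyB (-0.09), and PS_EAR is lowest for phyC (0.43).

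After TMM, phyB1, a copy of the main red light receptor, was highest in green blades. Without TMM its log2 fold change was -0.34 in V2_LF against V2_LF-I and 0.10 in PS_IN1 against PS_LF. The place of both blades above all other tissues therefore holds only after the correction. PS_LF stood at 56.1, 82.9 and 84.6 CPM and V2_LF at 74.0, 62.6 and 65.1 CPM, and these 2 tissues overlapped with each other and lay above every library of the others. Their means were 74.5 ± 16.0 and 67.3 ± 6.0 CPM, followed by PS_IN1 at 54.5 ± 1.08, PS_SILK at 43.4 ± 2.96, V2_LF-I at 39.0 ± 7.35 and PS_EAR at 31.3 ± 2.83. The remaining tissues were close together, with DAP35_S at 28.1 ± 2.49 CPM, DAS4_HY at 27.2 ± 2.47, DAS4_R at 26.4 ± 2.75, PS_TAS at 25.0 ± 6.19 and DAP12_S at 21.4 ± 0.92. From PS_SILK downwards each tissue overlapped with the next. The span from highest to lowest mean was 3.48-fold.

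phyB2 was ordered otherwise, with the internode and the older seeds on top. PS_IN1 stood at 30.6, 31.8 and 30.4 CPM (mean 30.9 ± 0.75) and DAP35_S at 28.5, 30.2 and 30.8 CPM (mean 29.9 ± 1.19), and both lay above every other library. PS_EAR followed at 16.7 ± 4.43 CPM, PS_TAS at 15.3 ± 1.91, DAS4_R at 14.9 ± 1.12, V2_LF-I at 14.1 ± 4.08, DAS4_HY at 11.2 ± 0.29, DAP12_S at 10.6 ± 2.36 and PS_LF at 10.6 ± 2.79, each overlapping with the next. The lowest levels were those of V2_LF at 4.84, 6.40 and 5.95 CPM (mean 5.73 ± 0.80) and of PS_SILK at 4.01, 3.96 and 4.08 CPM (mean 4.02 ± 0.06), which were apart from each other and from the rest. The span was 7.70-fold. V2_LF, where phyB1 was near its highest after TMM, was thus among the lowest tissues of phyB2.

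The phyB ratio was higher in V2_LF, PS_SILK and PS_LF than in any library of the other tissues. It was 3.55 ± 0.33 (log2, mean ± SD) in V2_LF, 3.42 ± 0.09 in PS_SILK and 2.82 ± 0.17 in PS_LF, so that green blades and silks held between 86.2% and 93.9% of the reads of the pair on phyB1 in every library. The next was V2_LF-I at 1.49 ± 0.16, then DAS4_HY at 1.28 ± 0.15, DAP12_S at 1.03 ± 0.40, PS_EAR at 0.94 ± 0.24, DAS4_R at 0.82 ± 0.17, PS_IN1 at 0.82 ± 0.06 and PS_TAS at 0.68 ± 0.21. DAP35_S closed the order at -0.09 ± 0.17, with 646, 698 and 354 reads of phyB1 beside 640, 701 and 432 of phyB2. Without V2_LF replicate 1 the upper end was PS_SILK, with a span of 3.52. Among the greenhouse tissues alone the span was 2.87 log2 units, from V2_LF to PS_TAS (permutation p = 1e-05, the smallest possible).

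phyC1 varied less, apart from silks. PS_SILK stood at 94.7, 127 and 119 CPM, above every other library, with a mean of 113 ± 16.7. It was followed by V2_LF-I at 68.8 ± 9.87 CPM, V2_LF at 67.7 ± 16.3, DAS4_HY at 64.3 ± 5.05, PS_IN1 at 62.0 ± 7.94, PS_LF at 59.2 ± 22.8, PS_TAS at 51.0 ± 10.9 and DAP35_S at 47.4 ± 1.00, in which each overlapped with the next. DAS4_R at 39.0 ± 5.41, PS_EAR at 38.8 ± 2.79 and DAP12_S at 36.5 ± 1.19 formed the lower end and overlapped too. The span was 3.11-fold. PS_LF spread most, with 35.2 CPM in replicate 1 and 80.5 and 61.8 in replicates 2 and 3.

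phyC2 had the narrowest span of the 6 genes, 2.63-fold. PS_SILK (29.2 ± 6.97 CPM), PS_EAR (28.9 ± 2.88), V2_LF-I (28.0 ± 8.83), DAP12_S (24.3 ± 2.92), PS_IN1 (22.4 ± 1.59) and PS_LF (21.4 ± 2.07) overlapped from one to the next. V2_LF at 17.1 ± 1.57 CPM and DAP35_S at 15.5 ± 0.68 lay below them, and DAS4_HY at 13.8 ± 0.47, PS_TAS at 13.5 ± 3.20 and DAS4_R at 11.1 ± 0.17 were lowest. The root libraries stood at 11.2, 11.3 and 10.9 CPM. DAP12_S and PS_EAR, near the lower end of phyC1, were among the higher tissues of phyC2.

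The phyC ratio was lowest in exactly those tissues. It was 0.43 ± 0.25 (log2) in PS_EAR, with 1163, 2021 and 1897 reads of phyC1 beside 709, 1643 and 1575 of phyC2, and 0.60 ± 0.13 in DAP12_S. All other tissues lay between 1.33 ± 0.26 in V2_LF-I and 2.22 ± 0.06 in DAS4_HY, and none of their libraries came down to those of the ear and the young seeds. In between were PS_LF at 1.39 ± 0.47, PS_IN1 at 1.46 ± 0.17, DAP35_S at 1.62 ± 0.05, DAS4_R at 1.80 ± 0.19, PS_TAS at 1.92 ± 0.06, V2_LF at 1.96 ± 0.26 and PS_SILK at 1.97 ± 0.16. Among the greenhouse tissues alone the span was 1.55 log2 units, from PS_SILK to PS_EAR, with a permutation p of 0.00021.

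Single pairs of tissues were compared in the same fit of all libraries, with log2 fold changes given ± SE and p-values adjusted over all genes tested. Of the 2 seedling organs kept out of direct light, hypocotyls had less phyA1 and more phyC1 than roots. phyA1 stood at 83.7, 79.0 and 58.3 CPM in DAS4_HY against 163, 141 and 119 in DAS4_R, without overlap, and fell by 0.94 ± 0.18 on the log2 scale (adjusted p = 0.00013, edgeR). phyC1 was higher by 0.72 ± 0.21 (adjusted p = 0.0064, edgeR), at 69.3, 59.2 and 64.4 CPM against 44.6, 38.5 and 33.8. These were 2 of the 6 genes, against 43.4% of all genes tested. phyA2 (0.26 ± 0.19), phyB1 (0.05 ± 0.16), phyB2 (-0.42 ± 0.20, adjusted p = 0.088, edgeR) and phyC2 (0.31 ± 0.18, adjusted p = 0.18) did not pass. In a fit of these 6 libraries alone phyB2 and phyC2 passed as well. The log2 ratio of the phyA copies was lower in hypocotyls by 1.20 ± 0.22 and those of phyB and phyC higher by 0.46 ± 0.13 and 0.42 ± 0.11, each with an exact permutation p of 0.1.

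Hypocotyls were also set against the white leaf parts, as another shoot tissue that was not green. phyA1 was higher in DAS4_HY by 1.30 ± 0.18 (adjusted p = 2.1e-06, edgeR), with 28.3, 25.3 and 36.1 CPM in V2_LF-I, and by 1.63 without TMM. phyC2 was lower by a log2 fold change of -1.02 ± 0.18 (adjusted p = 5.4e-05, edgeR), at 14.3, 13.3 and 13.7 CPM against 23.0, 38.2 and 22.9, and by -0.67 without TMM. phyB1 was lower as well, by -0.52 ± 0.16 (adjusted p = 0.0091, edgeR), a call that was lost without V2_LF-I replicate 2 (-0.40, adjusted p = 0.073) and without TMM (-0.17, adjusted p = 0.42). The 3 genes called compare with 42.8% of all genes tested. phyA2 (0.31), phyB2 (-0.34) and phyC1 (-0.10) did not pass, although phyB2 did without V2_LF-I replicate 1 (-0.52, adjusted p = 0.043) and phyA2 without TMM (0.65, adjusted p = 0.0075). The ratio rose by 0.98 ± 0.24 for phyA and by 0.89 ± 0.15 for phyC, with no overlap of libraries, and differed by -0.20 ± 0.13 for phyB, with overlap (exact permutation p = 0.1, 0.1 and 0.2).

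Within seedling leaves, the green blades were compared with the white inner parts. phyA1 was 148 to 166 CPM in V2_LF and 25.3 to 36.1 CPM in V2_LF-I, a rise of 2.39 ± 0.19 on the log2 scale (adjusted p = 2.1e-11, edgeR). phyB2 fell by 1.30 ± 0.21 (adjusted p = 6e-06, edgeR), from 10.3, 18.4 and 13.8 CPM to 4.84, 6.40 and 5.95, and phyC2 fell by 0.71 ± 0.19 (adjusted p = 0.0015). These 3 directions held under every scaling tried, but not the sizes, which were 1.26, -2.42 and -1.83 without TMM. Without V2_LF-I replicate 2 phyC2 stood at -0.43. phyA2 (0.63 ± 0.20, adjusted p = 0.0068) and phyB1 (0.78 ± 0.16, adjusted p = 9.5e-05) were higher after TMM but lower without it, at -0.50 and -0.34. phyA2 also lost its call without V2_LF-I replicate 1 (0.46, adjusted p = 0.061). The 5 genes called compare with 65.5% of all genes tested, and phyC1 (-0.02) did not pass with TMM, while it was called lower without TMM (-1.15, adjusted p = 2.7e-05). The balance of the copies changed in each pair, and the log2 ratio rose from white to green leaf by 1.76 ± 0.23 for phyA, 2.06 ± 0.21 for phyB and 0.63 ± 0.21 for phyC, values that no scaling touches, with an exact permutation p of 0.1 for each.

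**Figure D3:**
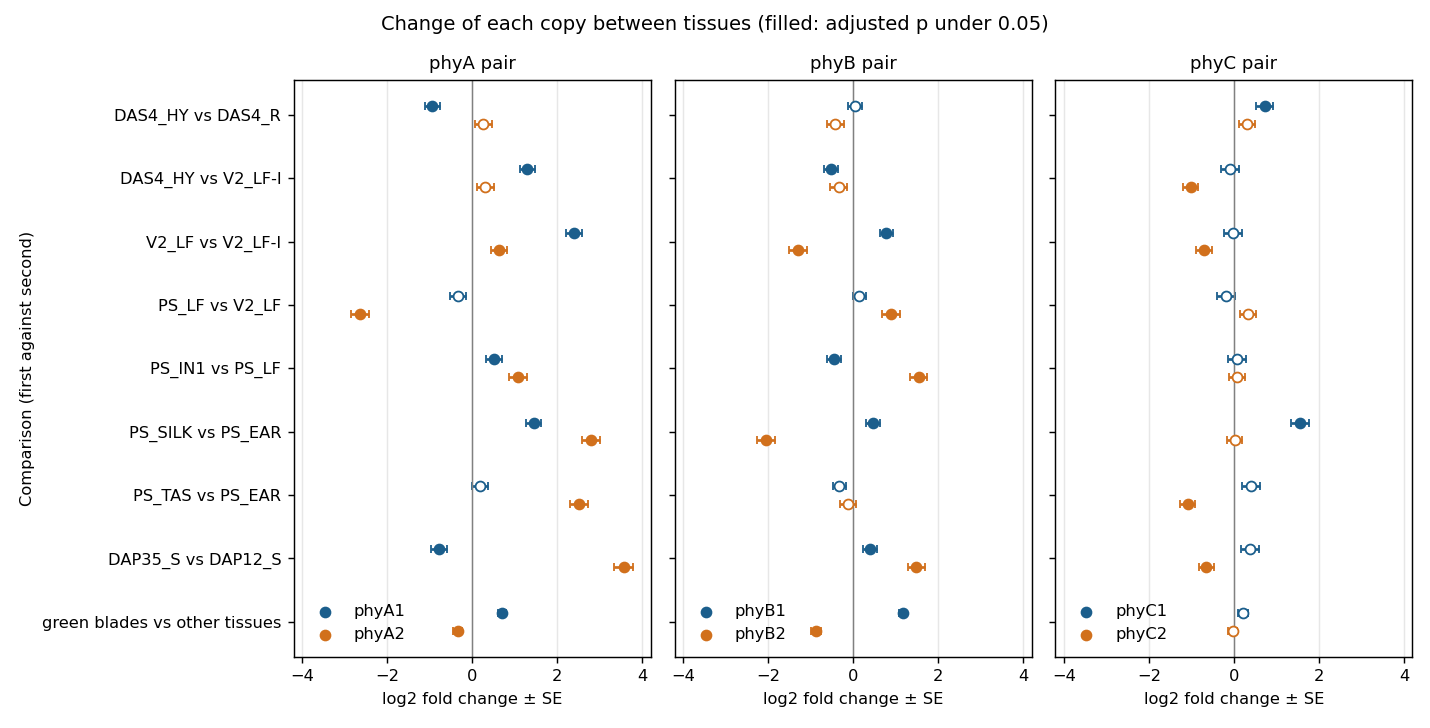
Log2 fold change ± SE of each copy in the 9 comparisons of tissues, first tissue against second, with filled points where the adjusted p of edgeR is under 0.05. The copies of phyB moved apart in V2_LF against V2_LF-I (0.78 and -1.30) and in PS_SILK against PS_EAR (0.47 and -2.05), and those of phyA in DAP35_S against DAP12_S (-0.79 and 3.57).

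The adult and the seedling blade differed in the second copies of phyA and phyB. phyA2 fell from 35.2, 36.8 and 35.5 CPM in V2_LF to 3.55, 5.95 and 7.97 CPM in PS_LF, by 2.64 ± 0.21 on the log2 scale (adjusted p = 2.8e-10, edgeR). Its log2 fold change without TMM was -1.88. phyB2 rose by 0.88 ± 0.21 (adjusted p = 0.0013, edgeR), from at most 6.40 to at least 7.73 CPM, and by 1.64 without TMM. These were 2 of the 6 genes against 46.4% of all genes tested. The first copies gave -0.34 ± 0.18 for phyA1 (adjusted p = 0.13), which was called lower with RLE size factors (-0.44, adjusted p = 0.044) and in DESeq2 (-0.44, adjusted p = 0.035) and stood at 0.43 without TMM, and 0.15 ± 0.16 for phyB1. phyC1 (-0.20) and phyC2 (0.32) did not pass either. Without TMM phyB1 (0.90, adjusted p = 7.3e-05), phyC1 (0.55, adjusted p = 0.026) and phyC2 (1.08, adjusted p = 3e-05) were called higher. The ratio moved by 2.35 ± 0.44 for phyA and -0.73 ± 0.22 for phyB (exact permutation p = 0.1 for both), and by -0.57 ± 0.31 for phyC with overlapping libraries (exact permutation p = 0.2).

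At pollen shed, the internode had more phyB2 and phyA2 than the blade. phyB2 was 30.6, 31.8 and 30.4 CPM in PS_IN1 against 7.73, 13.3 and 10.8 in PS_LF (1.55 ± 0.20, adjusted p = 2.2e-07, edgeR), and phyA2 10.7 to 14.1 against 3.55 to 7.97 CPM (1.08 ± 0.21, adjusted p = 5.9e-05). phyA1 was higher by 0.51 ± 0.18 (adjusted p = 0.017) and phyB1 lower by -0.45 ± 0.16 (adjusted p = 0.015), the latter with 0.10 in place of -0.45 without TMM. Both calls were lost without PS_LF replicate 2 (0.45 and -0.37, adjusted p = 0.066 and 0.078, edgeR) or replicate 3 (0.47 and -0.35, adjusted p = 0.059 and 0.090), and that of phyA1 also without PS_IN1 replicate 2 (0.46, adjusted p = 0.056). The 4 genes called compare with 58.7% of all genes. phyC1 and phyC2 gave 0.07 each, and phyC1 turned to -0.20 without PS_LF replicate 1. Without TMM both were called higher, phyC1 by 0.63 (adjusted p = 0.011) and phyC2 by 0.62 (adjusted p = 0.0058). phyA1, phyA2 and phyB2 then stood at 1.05, 1.63 and 2.10. The ratio of phyB fell by 2.01 ± 0.10 (exact permutation p = 0.1), by 2.02 among the libraries of 25 November and by 2.0 among those of 28 November. Those of phyA (-0.62 ± 0.47, exact permutation p = 0.3) and phyC (0.07 ± 0.29, exact permutation p = 0.9) overlapped.

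Silks differed from the unpollinated ear in 5 of the 6 genes, against 52.0% of all genes tested. phyA2 rose from 10.4, 7.99 and 8.79 CPM in PS_EAR to 56.8, 72.7 and 57.9 CPM in PS_SILK (2.79 ± 0.21, adjusted p = 2.6e-11, edgeR), phyC1 by 1.55 ± 0.21 (adjusted p = 8.4e-07) and phyA1 by 1.44 ± 0.18 (adjusted p = 2.5e-07). phyB2 went the other way, from 21.8, 13.9 and 14.4 CPM to 4.01, 3.96 and 4.08, and fell by 2.05 ± 0.21 (adjusted p = 6.3e-09, edgeR). phyB1 was higher by 0.47 ± 0.16 (adjusted p = 0.014), but stood at -0.01 without TMM and lost its call without PS_EAR replicate 2 (0.41, adjusted p = 0.067), PS_EAR replicate 3 (0.43, adjusted p = 0.054) or PS_SILK replicate 1 (0.41, adjusted p = 0.059). phyC2 gave 0.02 ± 0.18 with TMM and -0.47 (adjusted p = 0.032) without it. The values of phyA2, phyC1, phyA1 and phyB2 without TMM were 2.30, 1.06, 0.97 and -2.53. The ratio fell by 1.37 ± 0.37 for phyA and rose by 2.49 ± 0.15 for phyB and 1.55 ± 0.17 for phyC (exact permutation p = 0.1 for each).

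The tassel with fresh pollen differed from the ear in 2 of the 6 genes, both second copies, against 73.9% of all genes. phyA2 stood at 52.2, 55.1 and 47.9 CPM in PS_TAS, higher by 2.51 ± 0.21 (adjusted p = 3.4e-11, edgeR). phyC2 fell by 1.09 ± 0.18 (adjusted p = 7.8e-06), from 25.6, 30.1 and 31.0 CPM to between 9.85 and 15.8. phyA1 (0.18), phyB1 (-0.32, adjusted p = 0.068), phyB2 (-0.12) and phyC1 (0.40, adjusted p = 0.089) did not pass. Without TMM all 6 passed, with phyA2 higher by 1.41 and phyA1 (-0.91), phyB1 (-1.40), phyB2 (-1.21), phyC1 (-0.70) and phyC2 (-2.18) lower. phyC1 was called higher with RLE size factors (0.51, adjusted p = 0.028), in DESeq2 (0.51, adjusted p = 0.024) and without PS_TAS replicate 1 (0.60, adjusted p = 0.016). phyB1 was called lower without PS_TAS replicate 2 (-0.52, adjusted p = 0.0060). The ratio fell by 2.34 ± 0.16 for phyA, rose by 1.49 ± 0.15 for phyC (exact permutation p = 0.1 for both) and differed by -0.25 ± 0.18 for phyB with overlap (exact permutation p = 0.3). Within 25 November the differences were -2.42 for phyA and 1.25 for phyC, and within 28 November they were -2.30 and 1.61.

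Seeds of the later age had far more phyA2. It rose from 2.08, 1.81 and 1.61 CPM in DAP12_S to 23.8, 21.8 and 19.8 CPM in DAP35_S (3.57 ± 0.22, adjusted p = 6.5e-12, edgeR), the largest of the changes of the 6 genes in these 9 comparisons. phyA1 moved the other way, from 50.0, 47.2 and 41.4 CPM to 30.7, 25.5 and 24.1, and fell by 0.79 ± 0.18 (adjusted p = 0.0010). phyB2 rose from 11.1, 12.7 and 8.06 CPM to 28.5, 30.2 and 30.8 (1.49 ± 0.20, adjusted p = 1.3e-06), and phyC2 fell by 0.65 ± 0.18 (adjusted p = 0.0052). Without TMM phyA2 stood at 2.94, phyA1 at -1.41, phyB2 at 0.87 and phyC2 at -1.27. phyB1 was at 0.39 ± 0.16 (adjusted p = 0.047), -0.23 without TMM, and lost its call when any library but DAP35_S replicate 3 was left out (0.34 to 0.40, adjusted p of 0.084 to 0.15). These 5 genes compare with 44.0% of all genes, and phyC1 (0.38, adjusted p = 0.15, -0.24 without TMM) did not pass. The ratio fell by 4.35 ± 0.05 for phyA and by 1.13 ± 0.25 for phyB and rose by 1.02 ± 0.08 for phyC (exact permutation p = 0.1 for each). Seed age and the method of RNA extraction cannot be told apart here.

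Taken as a mean, the 2 green blades differed from the mean of the other 9 tissues in 4 of the 6 genes, against 72.6% of all genes, whose median log2 fold change was -0.29. phyB1 was higher by 1.16 ± 0.08 (adjusted p = 3.9e-13, edgeR) and phyB2 lower by -0.87 ± 0.12 (adjusted p = 3.3e-07), and both kept their sign without TMM at 0.33 and -1.70. phyA1 was higher by 0.71 ± 0.09 (adjusted p = 1.6e-07) but stood at -0.12 without TMM. phyA2 was lower by -0.35 ± 0.11 (adjusted p = 0.0082) and by -1.18 without TMM, a mean over a seedling and an adult blade that differed by 2.64 log2 units, and lost its call without PS_LF replicate 1 (-0.21, adjusted p = 0.069). phyC1 (0.22, adjusted p = 0.088) and phyC2 (-0.03) did not pass, but both were called lower without TMM, phyC1 by -0.61 (adjusted p = 4.7e-05) and phyC2 by -0.86 (adjusted p = 8.8e-08). With TMM phyC1 was called higher without PS_LF replicate 1 (0.35, adjusted p = 0.0024) or V2_LF replicate 3 (0.28, adjusted p = 0.034).

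Over the 11 tissue means of log2 CPM, no pair of copies stood out by its likeness. Pearson's r was 0.31 (Spearman's rho 0.39) between phyA1 and phyA2, -0.28 (-0.26) between phyB1 and phyB2, and 0.30 (0.15) between phyC1 and phyC2. These values are descriptions over 11 points that share library scaling. Among the 24515 genes with a mean of at least 1 CPM, phyA2 had rank 4996 in likeness to phyA1, phyB2 had rank 14974 to phyB1 and phyC2 had rank 4426 to phyC1. Seen from the second copies, the rank was 3907 for phyA2, 20098 for phyB2 and 3977 for phyC2. Across pairs r reached 0.60 between phyA2 and phyC1, the highest of all 15, and -0.54 between phyB2 and phyC1, the lowest. The gene most like each was Zm00001d039904 for phyA1 (r = 0.95), Zm00001d030532 for phyA2 (0.90), Zm00001d007517 for phyB1 (0.95), Zm00001d014443 for phyB2 (0.89), Zm00001d032994 for phyC1 (0.88) and Zm00001d039000 for phyC2 (0.92). The files give no names for these 6 IDs.

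**Figure D4:**
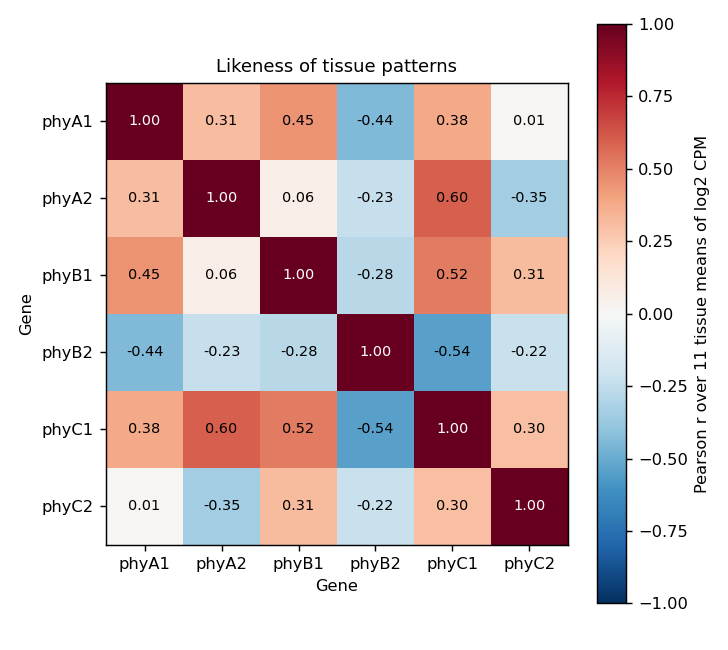
Pearson's r over the 11 tissue means of log2 CPM between each pair of the 6 phytochrome genes, from -1 (blue) to 1 (red). The 2 copies of a pair reach 0.31 (phyA), -0.28 (phyB) and 0.30 (phyC), and phyA2 with phyC1 reaches 0.60.

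Replicate 1 of PS_EAR, PS_IN1, PS_LF and PS_TAS was harvested on 25 November and replicates 2 and 3 on 28 November, the only batch that the labels give within tissues. With the tissue as a covariate, none of the 6 genes differed between the days at an adjusted p under 0.05 in edgeR, against 0.0940% of the 26609 genes tested in these 12 libraries. The largest values were those of phyC1, higher on the later day by 0.42 ± 0.17 (adjusted p = 0.35), and phyC2, higher by 0.31 ± 0.10 (adjusted p = 0.28). In PS_LF, replicate 1 had the lowest levels of both genes, 35.2 CPM of phyC1 and 19.2 CPM of phyC2. The other 4 genes gave between -0.05 and 0.22.

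phyA2 also had reads on the strand opposite to the gene. The opposite strand held 1355 reads over the 33 libraries, 5.79% of the reads of both strands on phyA2, against 0.87% for phyC1 and between 0.050% and 0.11% for the other 4 genes. In DAP12_S it held 55, 58 and 61 reads beside the 72, 65 and 52 on the gene's own strand, and its share was 48.1 ± 5.41%, with 0.91%, 0.91% and 0.97% over all genes of these libraries. In PS_EAR the share was 30.4 ± 6.66%, and the reads there, 96, 174 and 272, came to 5.81 ± 1.81 CPM without the composition correction, the most of any tissue. In V2_LF the share was 0.083 ± 0.14%, from at most 1 read in a library. The tissues with the largest share were among those with the lowest phyA2 levels, but the reads of phyA2 itself are in the denominator of the share. In CPM without the composition correction the opposite strand held 2.26 ± 0.16 in DAP12_S and 0.73 ± 0.43 in PS_LF. It held 1.43 ± 0.11 in PS_SILK and 1.64 ± 0.62 in PS_TAS, where phyA2 was highest. Where strand was disregarded, the span of the phyA ratio was 4.07 log2 units with PS_LF, not DAP12_S, at its top. The source of these reads was not tested.

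**Figure D5:**
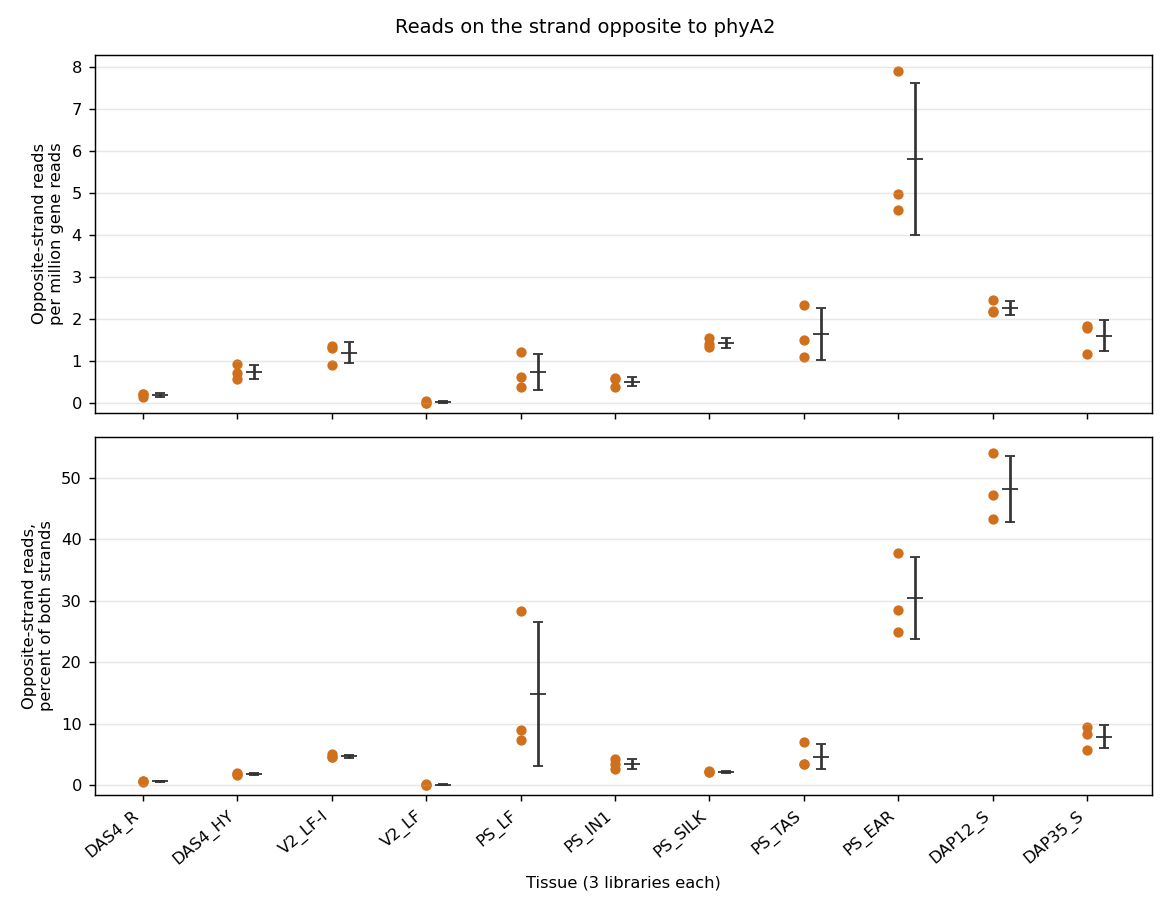
Reads on the strand opposite to phyA2, in CPM without the composition correction (top) and as a percentage of the reads of both strands (bottom), in the 3 libraries of each tissue with the mean ± SD beside them. PS_EAR is highest in CPM, at 5.81, and DAP12_S in the share, at 48.1%.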

How the data were processed

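The data are RNA-seq counts of 33 libraries. Before deposit the authors used Trimmomatic for trimming, sortMeRNA against ribosomal reads and STAR for alignment to AGPv4, which the submitters' processing notes name as B73 RefGen_v4. For STAR's version and the annotation's release, nothing is given in the sources used here. The deposited counts are raw reads per gene in 3 columns (unstranded, forward, reverse). The reverse column was used, as fits the TruSeq stranded kit named in the labels. The 4 lines without a gene (a median of 12.1% of a file's reads) were left out of library sizes and tests.

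Genes were tested with edgeR version 4.0.16 (R version 4.3.3) by its quasi-likelihood test, with TMM scaling, filterByExpr (minimum count 10, minimum total 15), 1 group per tissue, 22 residual degrees of freedom and Benjamini-Hochberg adjustment over all 28997 genes, called at 0.05. The study's methods give no test between these tissues. For the harvest day, the 12 dated libraries were fitted with the tissue as a covariate and 7 residual degrees of freedom. The log2 ratio of reads, with 0.5 added to each count, was tested over tissues by 100000 permutations of the libraries. Likeness used log2 CPM with a prior count of 2. The scripts were tested on simulated data.

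The 6 members and the comparisons were chosen with earlier results of these data known. The genes named are the 6 members and, for each, the gene whose tissue means correlate best with its own. Other light signalling genes were not analysed here, since their names could not be tied to IDs. The 3 copy ratios were the only family tested by permutation over all tissues. The 24 ratio differences between tissues were described by their values, with an exact permutation p that was not adjusted. Replicates differed by more than sampling noise (chi-square per degree of freedom from 8.42 to 129.6), so none was counted as a copy of another. Replicate numbers in the labels were not taken to pair libraries across tissues, apart from the harvest day they share in PS_EAR, PS_IN1, PS_LF and PS_TAS. P-values measure the spread between plants or pools. The number of reads limits the precision of low counts, and no interval was computed.

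Alternatives were DESeq2 version 1.42.0, RLE factors, no filter, the unstranded column, a replicate block, fits of the compared tissues alone, a pseudocount of 5, the share of reads in place of the ratio, greenhouse tissues alone, each library left out, and library size without TMM, which was chosen after seeing the data.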

Additional observations from a re-analysis of the deposited data

Results flagged for a closer look

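The opposite strand of 4 of the 6 genes held more than the 3 reads that a count of 0 allows, in a column of the files that the comparisons do not use. This was so for phyA2 in 30 of the 33 libraries, for phyC1 in 27, for phyA1 in 4 and for phyC2 in 1. The most in a library were 272 reads for phyA2, 62 for phyC1, 16 for phyA1 and 5 for phyC2. For phyC1 the share of both strands was largest in PS_TAS (2.38 ± 0.15%) and V2_LF-I (2.25 ± 1.04%). Over all genes the opposite strand took 0.90% to 4.33% of the gene reads of a library. The DAP35_S libraries stood apart there, at 4.33%, 3.83% and 3.35%, and no library of another tissue exceeded 1.44%. The source of these reads was not tested.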

How the results depend on the processing

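The copy ratios differed among tissues under every alternative run, with spans between 4.07 and 4.50 log2 units for phyA over all 11 tissues. Correlations of same-numbered deviations ran from -0.17 (PS_TAS against PS_EAR) to 0.30 (PS_SILK against PS_EAR), and no comparison had all 3 over 0.1. The replicate numbers were therefore not taken to pair the libraries, although this rule cannot exclude pairing. With the number as a block the spans of the ratios (4.35, 3.64 and 1.79 log2 units) cannot move, since each tissue has 1 library of each number, and this says nothing about their stability. Among single genes the block moved only phyB1 in DAP35_S against DAP12_S across the threshold (0.39, adjusted p = 0.055, edgeR). The same call was lost with no filter (0.38, adjusted p = 0.074). The number of phytochrome genes called moved from 2 to 4 for DAS4_HY against DAS4_R in a fit of these tissues alone, and without TMM from 2 to 5 for PS_LF against V2_LF and from 2 to 6 for PS_TAS against PS_EAR. With a library left out, this number moved most, from 2 to 4, for DAS4_HY against V2_LF-I and for PS_IN1 against PS_LF. In the fit of the compared tissues alone phyC1 also passed in DAP35_S against DAP12_S (0.41, adjusted p = 0.00090, edgeR). The copies with the fewest reads were phyB2 in V2_LF (48 to 70) and phyA2 in DAP12_S (52 to 72), which limits the precision of those levels.

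Without TMM these log2 fold changes turned their sign: phyB2 (0.014) and phyC1 (0.25) in DAS4_HY against V2_LF-I, phyA2 (-0.50) and phyB1 (-0.34) in V2_LF against V2_LF-I, phyA1 (0.43) and phyC1 (0.55) in PS_LF against V2_LF, phyB1 (0.10) in PS_IN1 against PS_LF, phyB1 (-0.015) and phyC2 (-0.47) in PS_SILK against PS_EAR, phyA1 (-0.91) and phyC1 (-0.70) in PS_TAS against PS_EAR, phyB1 (-0.23) and phyC1 (-0.24) in DAP35_S against DAP12_S, and phyA1 (-0.12) and phyC1 (-0.61) in green blades against the rest. The only others to turn with all libraries kept were phyC1 in V2_LF against V2_LF-I (0.054 with RLE factors and 0.054 in DESeq2) and in PS_IN1 against PS_LF (-0.0043 in the fit of these tissues alone). RLE factors and DESeq2 moved the median of all genes by 0.12 and 0.13 in PS_TAS against PS_EAR and by less than 0.1 elsewhere.

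With a library left out, values that turned were all uncalled and ran from -0.013 to 0.15 for phyB1 in DAS4_HY against DAS4_R, from -0.19 to 0.016 for phyC1 in DAS4_HY against V2_LF-I, from -0.25 to 0.091 for phyC1 in V2_LF against V2_LF-I, from -0.48 to 0.072 for phyC1 in PS_LF against V2_LF, from -0.20 to 0.36 for phyC1 and from -0.00060 to 0.14 for phyC2 in PS_IN1 against PS_LF, from -0.095 to 0.19 for phyC2 in PS_SILK against PS_EAR, from -0.24 to 0.11 for phyB2 in PS_TAS against PS_EAR and from -0.081 to 0.0045 for phyC2 in green blades against the rest. For the harvest day they ran from -0.17 to 0.00091 for phyA1, from -0.10 to 0.30 for phyA2 and from -0.17 to 0.28 for phyB2. The harvest day called 25 of all genes with TMM, 16 without it, 52 with no filter, 831 in DESeq2 and 7 to 54 with a library left out, and 0 of the 6 genes in each of these. Without TMM the share of higher among the called of all genes moved from 51.6% to 73.2% in DAS4_HY against V2_LF-I, from 47.8% to 19.8% in V2_LF against V2_LF-I, from 50.3% to 82.7% in PS_LF against V2_LF, from 52.8% to 72.9% in PS_IN1 against PS_LF, from 47.4% to 23.6% in PS_SILK against PS_EAR, from 53.9% to 30.2% in PS_TAS against PS_EAR, from 49.0% to 17.99% in DAP35_S against DAP12_S and from 48.4% to 26.4% in green blades against the rest. The cause of these shifts was not tested.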
